A study of Mus musculus with 3 samples.

Results

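The platelet-derived growth factor (PDGF) family was followed gene by gene through regenerating mouse muscle. Its members were the ligand genes *Pdgfa*, *Pdgfb*, *Pdgfc* and *Pdgfd* and the receptor genes *Pdgfra* and *Pdgfrb*, taken by symbol from the feature lists, where they were 6 of 32285 features and each symbol matched 1 feature. All 6 genes were detected. Single-cell RNA sequencing had been performed on tibialis anterior muscle 4 days after injury by intramuscular barium chloride (BaCl2), an agent that kills muscle fibres and sets off regeneration. There were 3 groups (young PBS, old PBS, old rMETRNL), with 1 library each. The study used them to look for signals that pass between immune cells and fibro/adipogenic progenitors (FAPs), the fibroblast-like cells of muscle.

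Young PBS mice were 3 to 4 months old, and both old groups were 24 to 26 months old. The study's methods give the strain as C57/BL6J. Its account of the intramuscular treatment describes 3 injections after injury, of PBS or of recombinant meteorin-like protein (rMETRNL, a secreted cytokine), into the damaged muscle. Muscles of 3 mice were pooled into each library, so that mice cannot be told apart, and all groups share the injury, the enzymatic digestion and the time point. With 1 library per group no test between groups was possible. Every interval below is a 95% interval of counting error only, it holds nothing of the spread between mice, and every ratio compares 2 libraries.

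PDGF ligands are secreted dimers that bind a pair of receptor tyrosine kinases on mesenchymal cells. The PDGF-A and PDGF-C chains act mainly through PDGFRα, PDGF-B binds both receptors, and PDGF-D acts mainly through PDGFRβ. PDGF-A and PDGF-B are released as active proteins, whereas PDGF-C and PDGF-D carry a CUB domain that proteases such as tissue plasminogen activator and urokinase must remove. In muscle PDGFRα marks FAPs and its signalling promotes their proliferation and matrix production, while PDGF-B from endothelial cells recruits PDGFRβ-positive pericytes to vessels.

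The files held 12168, 12568 and 14012 cell barcodes and 218059089, 179295668 and 228966697 unique molecular identifiers (UMIs, each counted as 1 transcript molecule), always in the order young PBS, old PBS, old rMETRNL. Filtering and doublet removal left 10319, 10017 and 11468 cells. Pairs of libraries shared 58 to 80 barcode sequences, under 0.7% of any library. Cells were clustered without the PDGF genes and classes were named from marker lists, hence the ending "-like". In 8 classes every library held at least 50 cells. FAP-like cells numbered 1616, 1323 and 1665, and their 10 FAP markers summed to 30830, 36664 and 31065 CPM (counts of a gene per 1e6 UMIs of the class), against 114, 131 and 128 CPM in macrophage/monocyte-like cells. Macrophage/monocyte-like cells numbered 6033, 5684 and 6603. Endothelial-like cells numbered 574, 813 and 838, tenocyte-like cells 191, 110 and 222, and pericyte/smooth muscle-like cells 87, 105 and 87. Muscle stem cell (MuSC)/myoblast-like cells numbered 352, 169 and 358, dendritic-like cells 599, 327 and 621, and T/NK-like cells 204, 176 and 120. Tenocyte-like cells shared the FAP markers, at 36596, 34652 and 36240 CPM summed, and were set apart by tendon genes. Median UMIs per cell were alike across libraries in macrophage/monocyte-like cells (14264, 15032 and 14592) but not in endothelial-like cells (11319.5, 4036 and 7374).

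**Figure D1:**
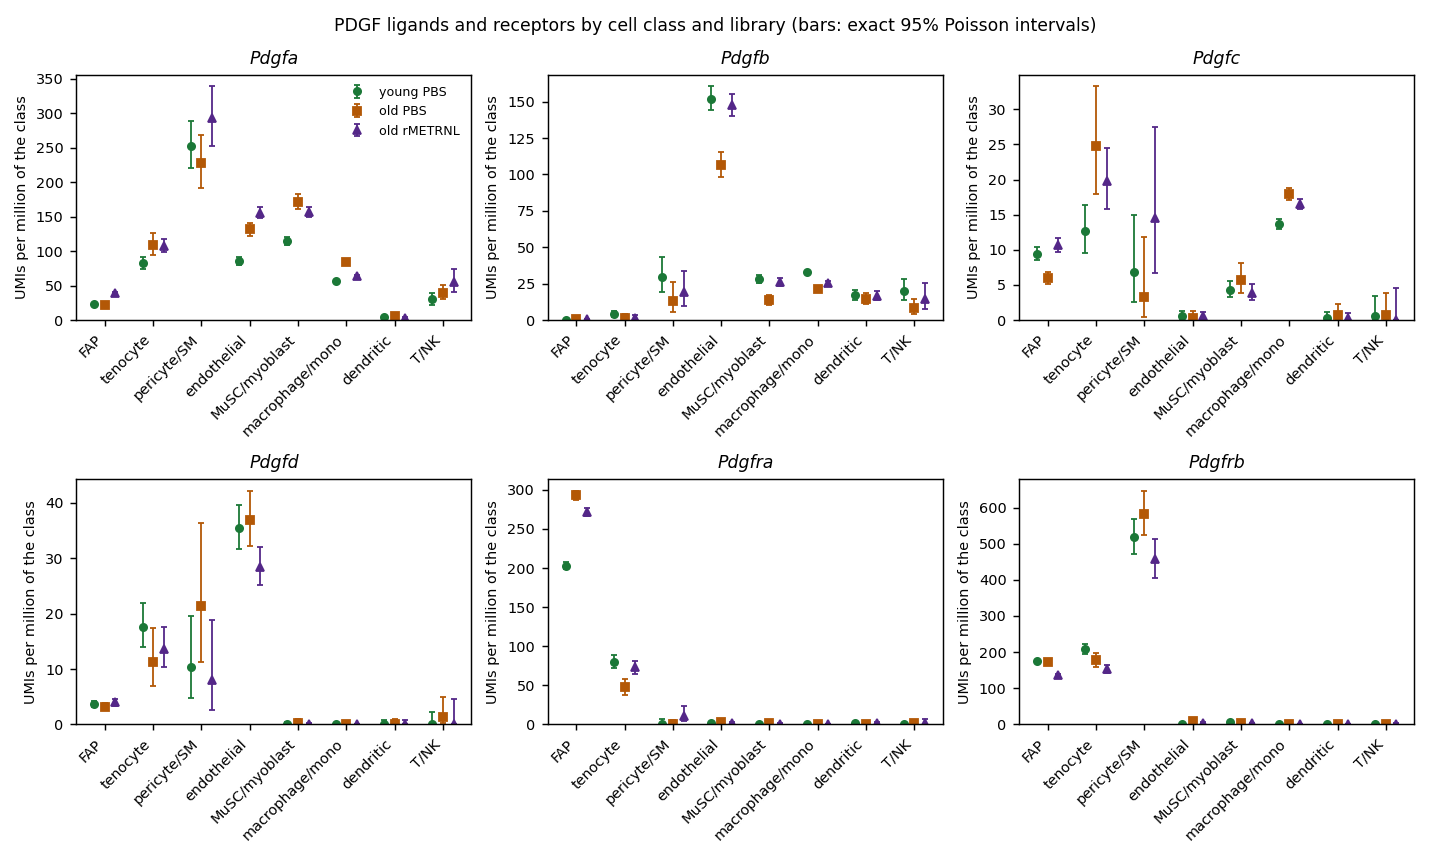
Level of each PDGF gene (vertical axis, CPM, from 0) in 8 cell classes (horizontal axis) of young PBS (circles), old PBS (squares) and old rMETRNL (triangles), with exact 95% Poisson intervals. *Pdgfra* stands in FAP-like and, lower, tenocyte-like cells, *Pdgfrb* is highest in pericyte/smooth muscle-like cells, *Pdgfb* and *Pdgfd* are highest in endothelial-like cells, and *Pdgfa* is above 20 CPM in every class but dendritic-like cells.

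*Pdgfa* was the most widely expressed ligand gene. Among the 8 classes compared, pericyte/smooth muscle-like cells had the highest level in all 3 libraries, at 252, 228 and 293 CPM, and their range did not overlap that of the other 7. MuSC/myoblast-like cells followed at 114, 171 and 157 CPM, endothelial-like cells at 85.6, 131 and 156 CPM, and tenocyte-like cells at 82.4, 109 and 108 CPM. These 3 classes overlapped their neighbours in the order and are not separated here. Macrophage/monocyte-like cells held 57.0, 84.7 and 63.4 CPM, T/NK-like cells 30.04, 39.7 and 55.2 CPM, and FAP-like cells 23.5, 21.6 and 38.8 CPM. Dendritic-like cells were lowest, at 4.55, 5.33 and 3.35 CPM, so free RNA added no more than that to this class. Barcodes with under 500 genes, which hold cell fragments and free RNA, had 36.5, 32.2 and 29.6 CPM.

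*Pdgfb* was an endothelial ligand gene above all. Endothelial-like cells held 152, 106 and 147 CPM, and no other class compared exceeded 32.9 CPM in any library. MuSC/myoblast-like (28.2, 13.6 and 26.1 CPM), macrophage/monocyte-like (32.9, 21.2 and 25.7 CPM), pericyte/smooth muscle-like (29.7, 13.1 and 19.3 CPM), dendritic-like (17.0, 14.2 and 16.8 CPM) and T/NK-like cells (8.22 to 20.2 CPM over the libraries) formed a middle group whose neighbours overlapped. The pericyte/smooth muscle-like value rested on few cells, since the cycling sub-cluster (26 cells) held 31 and the smooth muscle one (27 cells) 10 of its UMIs over the 3 libraries, and the other 3 sub-clusters were at 0 to 7.69 CPM. The 11 endothelial markers summed to 1153, 1103 and 1251 CPM in this class. The mesenchymal classes had almost none, with 1.13 to 4.06 CPM in tenocyte-like cells and 0.337, 0.504 and 0.6005 CPM in FAP-like cells. FAP-like cells therefore carried the receptors for this ligand, described below, but hardly its transcript.

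*Pdgfc* and *Pdgfd*, the ligand genes whose proteins need cleavage, were low and were divided between classes. *Pdgfc* was at 12.6, 24.8 and 19.8 CPM in tenocyte-like cells, 13.7, 17.9 and 16.5 CPM in macrophage/monocyte-like cells and 9.47, 5.95 and 10.7 CPM in FAP-like cells. The first 2 of these classes overlapped, and macrophage/monocyte-like cells were the higher of them in young PBS, so that *Pdgfc* was the 1 gene of the 6 whose highest class, of the 8 compared, was not the same in all 3 libraries. Endothelial-like, dendritic-like and T/NK-like cells held under 1 CPM of it. *Pdgfd* was highest in endothelial-like cells, with 35.5, 36.9 and 28.4 CPM, and tenocyte-like cells held 17.6, 11.3 and 13.7 CPM, pericyte/smooth muscle-like cells, which overlapped them, 10.3, 21.3 and 8.06 CPM on 9, 13 and 5 UMIs, and FAP-like cells 3.64, 3.12 and 3.97 CPM. Macrophage/monocyte-like cells had 5 to 7 *Pdgfd* UMIs per library in all, or 0.0515 to 0.0729 CPM.

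The receptor genes were concentrated in the mesenchymal classes. *Pdgfra* was at 203, 293 and 271 CPM in FAP-like cells and 79.9, 47.3 and 72.8 CPM in tenocyte-like cells, and the other classes compared stayed under 12 CPM. *Pdgfrb* was at 518, 583 and 458 CPM in pericyte/smooth muscle-like cells, 207, 177 and 152 CPM in tenocyte-like cells and 174, 174 and 136 CPM in FAP-like cells. Both mesenchymal classes overlapped for *Pdgfrb*, and the next of the classes compared, endothelial-like cells, had 2.44, 9.54 and 3.93 CPM. The barcodes with under 500 genes had 36.5, 25.3 and 34.2 CPM of *Pdgfrb* and 9.14, 20.7 and 15.6 CPM of *Pdgfra*. Macrophage/monocyte-like, dendritic-like and T/NK-like cells had 0 to 1.46 CPM of either gene, and the source of these UMIs was not tested. *Pdgfrb* in MuSC/myoblast-like (6.11, 2.93 and 2.54 CPM) and endothelial-like cells lay above those immune classes and below the barcodes with under 500 genes.

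Because sequencing depth sets how many cells show a UMI, each cell was thinned to 2000 UMIs before cells were counted, and shallower cells were left out. *Pdgfra* was then seen in 33.3%, 41.6% and 40.2% of FAP-like cells, against 0.0668%, 0.107% and 0.122% of macrophage/monocyte-like cells. Without thinning the FAP-like shares were 92.9%, 94.5% and 93.8%, at median depths of 26027.5, 21979 and 24628 UMIs. *Pdgfrb* was seen in 28.0%, 27.1% and 21.4% of thinned FAP-like cells and in 64.0%, 60.5% and 64.1% of thinned pericyte/smooth muscle-like cells. UMIs of both receptor genes were seen in 8.73%, 10.7% and 7.76% of thinned FAP-like cells. Unthinned, 82.6%, 79.3% and 78.5% of these cells held both, whereas 1.33%, 0% and 3.12% of pericyte/smooth muscle-like cells did. The 0 came from 76 cells, and a floor of 3 counts allows up to 3.95% of cells with UMIs of both genes (the exact upper bound is 4.74%). At full depth, but not after thinning, most FAP-like cells thus held UMIs of both receptor genes.

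**Figure D2:**
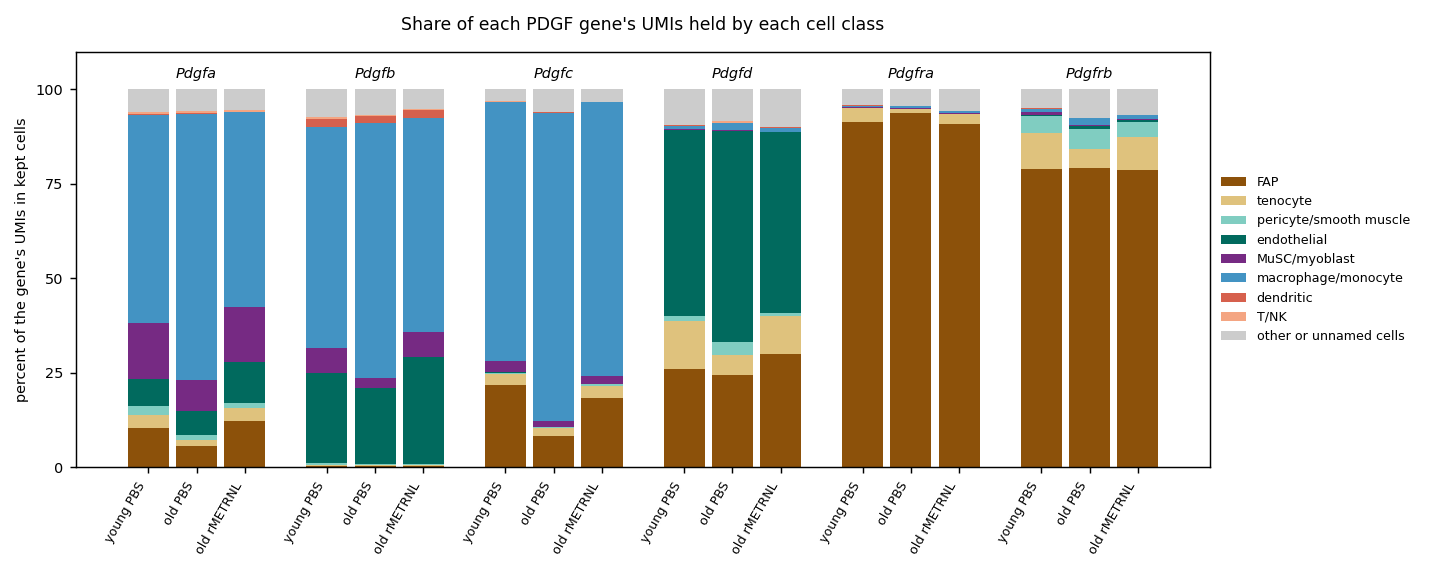
Share of each PDGF gene's UMIs (vertical axis, percent of the UMIs in kept cells of that library) held by each class (colours), with 1 bar per library. Macrophage/monocyte-like cells hold the largest part of *Pdgfa*, *Pdgfb* and *Pdgfc* in every library (51.5% to 81.6%), and FAP-like cells that of *Pdgfra* and *Pdgfrb* (78.8% to 93.9%).

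Levels per class and totals per library ranked the sources differently, since macrophage/monocyte-like cells made up 58.5%, 56.7% and 57.6% of kept cells. They held 55.0%, 70.4% and 51.5% of all *Pdgfa* UMIs, 58.4%, 67.4% and 56.6% of *Pdgfb* UMIs and 68.6%, 81.6% and 72.5% of *Pdgfc* UMIs. Endothelial-like cells held 23.9%, 20.3% and 28.3% of *Pdgfb* UMIs and 49.2%, 55.9% and 47.9% of *Pdgfd* UMIs. FAP-like cells held 91.5%, 93.9% and 91.0% of *Pdgfra* UMIs and 79.0%, 79.3% and 78.8% of *Pdgfrb* UMIs. Digestion and capture set how many cells of each class enter a library, so that these shares describe the suspensions and not the muscles.

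Classes too small to compare gave single values. Glial-like cells (38, 95 and 60 cells) had 185, 146 and 297 CPM of *Pdgfa*, in old rMETRNL as high as pericyte/smooth muscle-like cells. They held 34.6, 17.6 and 27.6 CPM of *Pdgfrb*, on 14, 10 and 9 UMIs, and 7.42, 3.52 and 18.4 CPM of *Pdgfra*, on 3, 2 and 6 UMIs. Unnamed cells held 52.6, 45.8 and 88.5 CPM of *Pdgfra*. Glial-like *Pdgfb* was at 93.9 CPM in young PBS, where it rested on 38 UMIs in 8 cells, and at 3.52 and 15.3 CPM in the old libraries. Myocyte-like cells, the differentiating muscle cells that express myogenin, had 37.2, 48.8 and 43.5 CPM of *Pdgfb* over 31, 8 and 12 cells.

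The ligand genes that stood farthest apart in breadth also differed in the sequences around an annotated start. These sequences are shown because *Pdgfa* was found in most classes and *Pdgfd* mainly in endothelial-like, tenocyte-like, pericyte/smooth muscle-like and FAP-like cells. Both are 300-base windows from RefSeq (GRCm38.p6), written 5′ to 3′ on the gene's strand. The *Pdgfa* window shown is chr5:138994895-138995194 on the minus strand, within the gene at chr5:138976014-138997370, and the *Pdgfd* window is chr9:6168236-6168535 on the plus strand, just before the gene at chr9:6168584-6378850. Gene positions are those of GENCODE M21. Capitals mark GGGCGG (a GC box, either strand) or TATAAA.
Pdgfa: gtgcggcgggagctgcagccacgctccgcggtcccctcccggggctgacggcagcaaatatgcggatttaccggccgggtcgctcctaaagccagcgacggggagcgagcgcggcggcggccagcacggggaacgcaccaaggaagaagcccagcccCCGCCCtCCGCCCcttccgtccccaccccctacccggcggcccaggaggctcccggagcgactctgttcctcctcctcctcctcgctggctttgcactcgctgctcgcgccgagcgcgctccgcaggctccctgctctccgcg
Pdgfd: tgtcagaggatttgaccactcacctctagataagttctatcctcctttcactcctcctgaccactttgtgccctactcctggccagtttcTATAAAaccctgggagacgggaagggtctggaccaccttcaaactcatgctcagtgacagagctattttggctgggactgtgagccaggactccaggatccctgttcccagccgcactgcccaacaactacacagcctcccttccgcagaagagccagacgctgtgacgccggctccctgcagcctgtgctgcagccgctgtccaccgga
The *Pdgfa* window shown held 2 GC boxes, no TATAAA and 73.3% G and C, and a second *Pdgfa* window, at chr5:138994232-138994531, held 1 GC box, no TATAAA and 67.0% G and C, whereas the *Pdgfd* window held 1 TATAAA, no GC box and 56.7% G and C. Of 32851 RefSeq promoter windows of this length, 35.7% had a GC box and 13.6% a TATAAA on either strand, and the median G and C content was 52.7%. *Pdgfc* (chr3:81036416-81214040, plus strand) and *Pdgfra* (chr5:75152292-75198215, plus strand) had neither motif in their windows, with 55.0% and 51.0% G and C. *Pdgfb* lies at chr15:79995874-80014977 on the minus strand. These letters describe the windows and were not tested against expression.

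**Figure D3:**
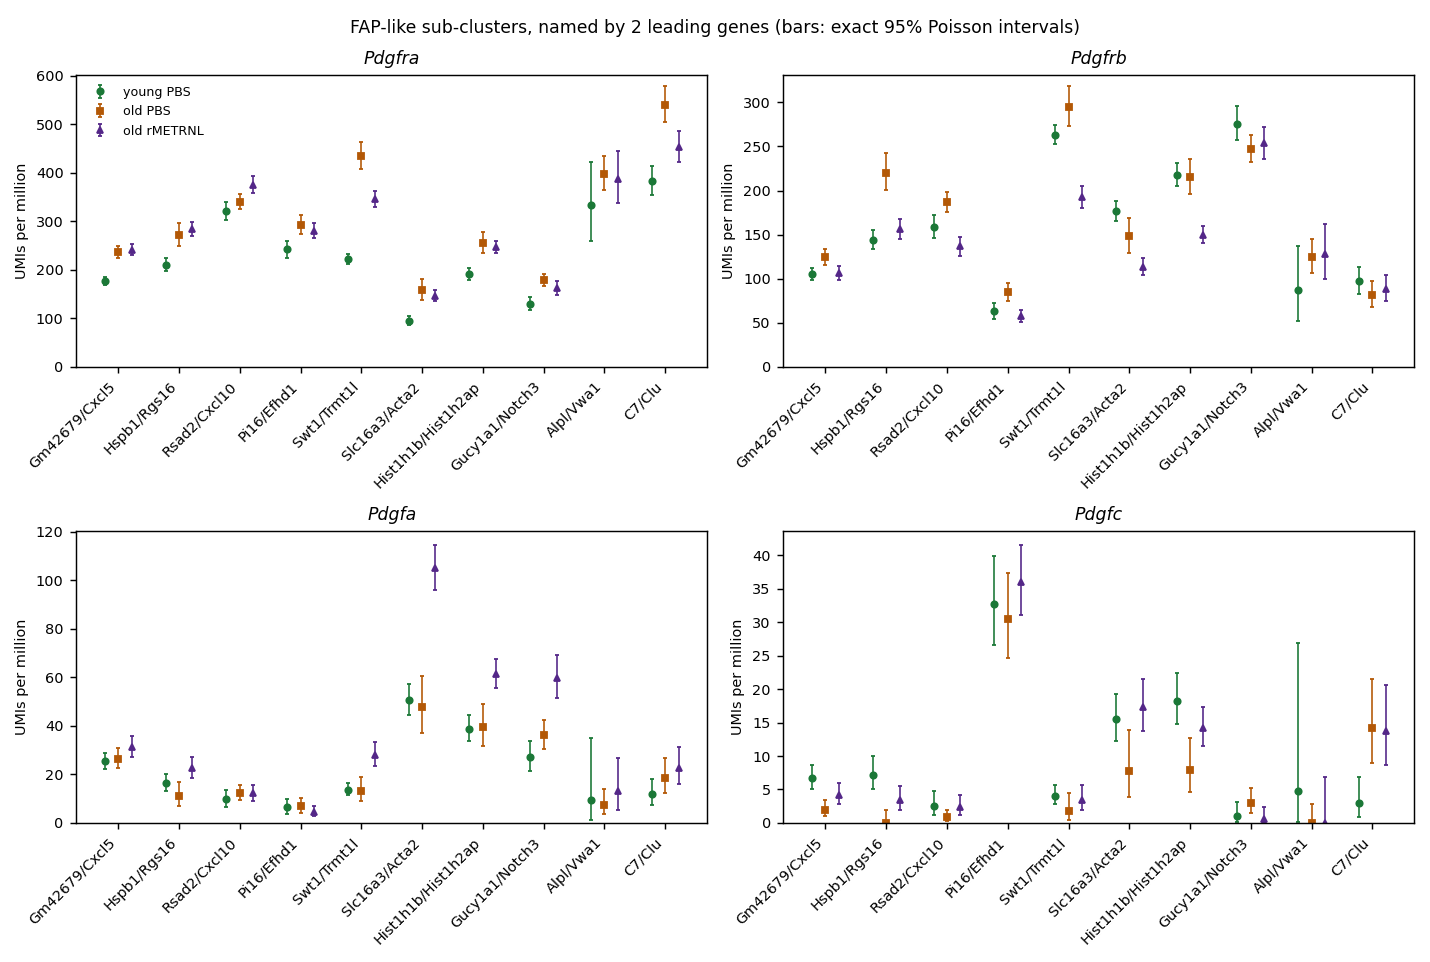
Levels of *Pdgfra*, *Pdgfrb*, *Pdgfa* and *Pdgfc* (vertical axes, CPM, from 0) in the 10 FAP-like sub-clusters (horizontal axes, named by 2 leading genes) of each library, with exact 95% Poisson intervals. *Pdgfra* in old PBS lies above young PBS in 10 of 10 sub-clusters, *Pdgfc* stands out in the Pi16/Efhd1 sub-cluster and *Pdgfa* in the Slc16a3/Acta2 sub-cluster of old rMETRNL.

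FAP-like cells were not uniform for the PDGF genes. The values that follow are for the 3 libraries together and describe sub-clusters that were themselves built from these cells, so that no test applies. The receptor genes differed between sub-clusters. *Pdgfra* was highest in the sub-cluster led by C7, Clu, Inmt and Myoc, at 457 CPM (438 to 476), and in the one led by Alpl (389 CPM), both of which had low *Pdgfrb* (89.3 and 121.8 CPM). *Pdgfrb* was highest in the sub-clusters led by Gucy1a1, Notch3 and Hey1, at 258 CPM (248 to 268), where *Pdgfra* was at 159 CPM, and by Swt1, at 247 CPM. The Swt1 sub-cluster was the higher of both in old PBS (295 against 248 CPM), and it held *Pdgfra* as well, at 221, 434 and 346 CPM. *Pdgfra* was lowest, at 125 CPM, in the sub-cluster that was highest for the Crabp1, Il11 and Inhba list and was led by Slc16a3, which encodes a lactate exporter, and Acta2, smooth muscle actin.

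The ligand genes fell in different FAP-like sub-clusters again. *Pdgfc* was at 33.6 CPM (30.3 to 37.2) and *Pdgfd* at 17.6 CPM in the sub-cluster led by Pi16, Dpp4 and Sema3c, genes of the fibroblasts of the outer muscle sheaths, and by library *Pdgfc* there was at 32.7, 30.5 and 36.0 CPM. This sub-cluster also had the lowest *Pdgfrb* (66.2 CPM) and the lowest *Pdgfa* (5.70 CPM). *Pdgfa* was highest in the Slc16a3/Acta2 sub-cluster, at 50.6, 47.9 and 105 CPM by library, and next in the cycling sub-cluster (49.7 CPM over the libraries). *Pdgfd* was also at 15.5 CPM in the C7/Inmt sub-cluster and at most 2.01 CPM in the other 8.

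**Figure D4:**
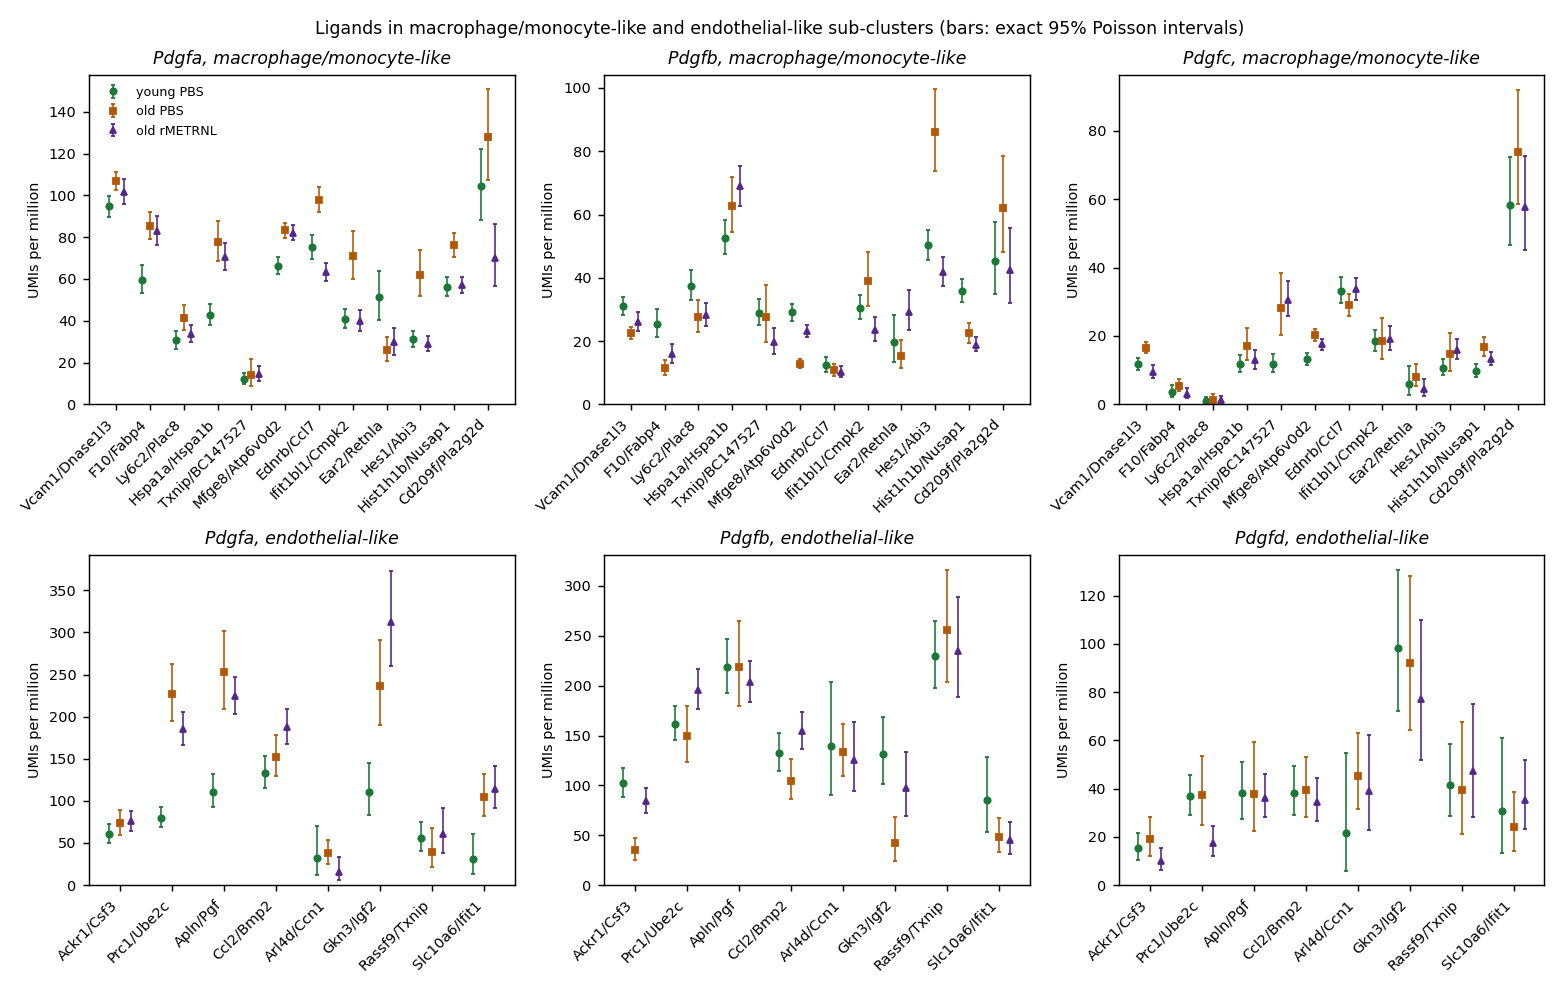
Ligand genes (vertical axes, CPM, from 0) in 12 macrophage/monocyte-like sub-clusters (top) and 8 endothelial-like sub-clusters (bottom), named by 2 leading genes, for each library with exact 95% Poisson intervals. *Pdgfc* is highest in the Cd209f/Pla2g2d macrophages (57.6 to 73.9 CPM), *Pdgfd* in the Gkn3/Igf2 endothelial cells (76.9 to 98.1 CPM), and *Pdgfb* in the Rassf9/Txnip and Apln/Pgf endothelial cells (204 to 255 CPM).

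Macrophage/monocyte-like cells showed the widest spread of *Pdgfc*. The sub-cluster led by Cd209f and Vsig4, and highest for the resident macrophage genes Cd163, Lyve1, Cbr2 and Folr2, had 58.4, 73.9 and 57.6 CPM, and the sub-cluster led by Ednrb, Ccl7 and Ccl2 had 33.3, 28.9 and 33.6 CPM. The Ly6c2/Plac8 sub-cluster, genes of freshly recruited monocytes, had 1.06, 1.39 and 1.34 CPM. Over the 3 libraries together *Pdgfa* was highest in the Vcam1/Dnase1l3 sub-cluster (94.7, 107 and 102 CPM by library) and lowest in the one led by Txnip (12.1, 14.1 and 14.6 CPM). *Pdgfb* was highest, on the same count, in the sub-cluster led by the heat shock genes Hspa1a and Hspa1b (52.6, 62.8 and 68.9 CPM), followed by the Hes1/Abi3 sub-cluster, highest for the Cx3cr1 list (50.3, 86.0 and 41.9 CPM). It was lowest in the Ednrb/Ccl7 sub-cluster (12.6, 10.8 and 10.3 CPM), where *Pdgfc* was high.

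Among endothelial-like cells the ligand genes differed between sub-clusters. *Pdgfd* was highest in the sub-cluster led by Gkn3 and Igf2, which was highest for the arterial genes Gja5, Hey1, Sema3g and Bmx, at 98.1, 92.1 and 76.9 CPM. The venous sub-cluster (Ackr1, Selp, Sele) had 15.3, 19.1 and 10.1 CPM of *Pdgfd*. *Pdgfb* was at 218, 219 and 204 CPM in the sub-cluster led by Apln and Pgf, which was highest for the tip cell genes Apln, Esm1 and Angpt2, the genes of sprouting vessel ends. It was as high, at 229, 255 and 235 CPM, in a shallow sub-cluster led by Rassf9 and Txnip, with median depths of 7571, 1705 and 1949.5 UMIs. The sub-cluster led by Slc10a6 had the lowest *Pdgfb* of the 3 libraries together, at 84.9, 48.2 and 44.9 CPM, although the venous sub-cluster of old PBS was lower (35.0 CPM). The capillary genes summed to 3112 CPM in the Slc10a6 sub-cluster, their highest, and to 2228 CPM in the Rassf9/Txnip one.

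Sub-clusters of other classes also differed. MuSC/myoblast-like cells led by Chodl had 288, 310 and 302 CPM of *Pdgfa* and those led by Mfsd2a and Myog had 79.5, 90.1 and 104 CPM. *Pdgfrb* in this class was highest in the sub-clusters led by Mgp (31.6, 8.38 and 3.21 CPM), Chodl (22.1, 2.29 and 6.005 CPM) and Fos (10.6, 15.7 and 10.5 CPM), while the Mfsd2a/Myog cells held 1 UMI in all. In T/NK-like cells *Pdgfa* was highest in the sub-cluster led by Gzmc and Vegfa, at 88.3, 92.5 and 145 CPM on 37, 27 and 35 UMIs, followed by the cycling sub-cluster, at 13.8, 65.1 and 90.6 CPM on 6, 27 and 10 UMIs, while the Foxp3 regulatory T cell sub-cluster had 2.75 CPM over the 3 libraries. In pericyte/smooth muscle-like cells *Pdgfrb* was at 808 CPM in the sub-cluster led by Ddit4l, at 788 CPM in the one highest for the pericyte genes Rgs5, Kcnj8, Abcc9 and Higd1b and at 196 CPM in the one highest for smooth muscle genes, over 411, 205 and 56 UMIs.

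Libraries were then compared class by class. A gene in a class was compared when it had at least 50 UMIs in both libraries together and counted as changed at a ratio of at least 1.5 or at most its inverse. In old PBS over young PBS, 28 of 48 possible pairs of gene and class could be compared, 9 were past 1.5-fold (32.1%), 3 higher and 6 lower, against 13.5% of all 75126 pairs of gene and class (6.37% higher, 7.16% lower). The median ratio was 1.08 for the PDGF pairs and 0.983 for all. In old rMETRNL over old PBS, 6 of 26 pairs were past 1.5-fold (23.1%), 4 higher and 2 lower, against 9.8% of all pairs (5.26% higher, 4.54% lower). In old rMETRNL over young PBS 7 of 28 were (25%), 6 higher and 1 lower, against 7.29% (3.78% higher, 3.51% lower). The pairs past the line included *Pdgfrb* in endothelial-like cells in all 3 comparisons, in MuSC/myoblast-like cells in the first and the third and in macrophage/monocyte-like cells in the second, and *Pdgfra* in macrophage/monocyte-like cells in the third, all at levels below those of barcodes with under 500 genes. Both lower pairs of the second comparison were among them. All 3 comparisons share libraries with each other. The intervals of 12, 8 and 13 PDGF pairs, in that order, held 1.

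**Figure D5:**
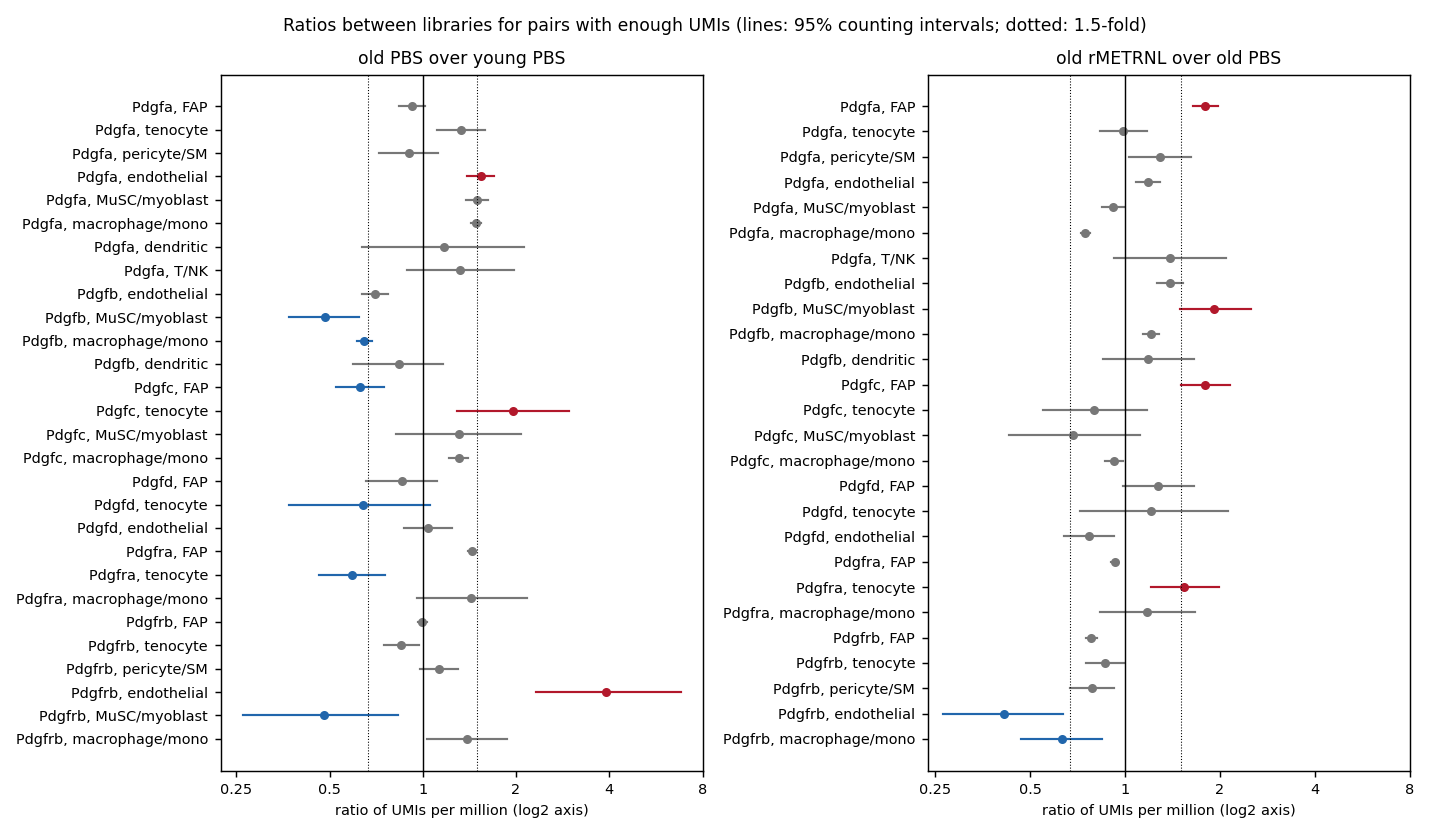
Ratio of CPM for each PDGF gene and class with at least 50 UMIs (rows), old PBS over young PBS (left) and old rMETRNL over old PBS (right), on a log2 axis with 95% counting intervals. Red and blue points are past 1.5-fold (dotted lines), *Pdgfb* lies below 1 in the 4 classes compared at left and above 1 in the same 4 at right (with the mean over cells 0.990 in endothelial-like and 0.993 in dendritic-like cells at right), and the highest ratio is *Pdgfrb* in endothelial-like cells (3.91).

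*Pdgfb* was at a ratio under 1 in old PBS over young PBS in the 4 classes where it could be compared. The ratio was 0.482 (0.370 to 0.620) in MuSC/myoblast-like cells, 0.646 (0.611 to 0.683) in macrophage/monocyte-like cells, 0.70 (0.635 to 0.771) in endothelial-like cells (short of 1.5-fold here and in 6 of 11 alternative settings) and 0.836 (0.596 to 1.16) in dendritic-like cells (1.02 with a looser cell filter), and the first 2 were past 1.5-fold. In the background 3.78% of genes in MuSC/myoblast-like cells and 6.44% in macrophage/monocyte-like cells were lower by that much. In old rMETRNL over old PBS the same classes gave 1.92 (1.49 to 2.51), 1.21 (1.14 to 1.28), 1.38 (1.26 to 1.52) and 1.18 (0.8499 to 1.65), of which the first was past 1.5-fold, as were 3.05% of genes in that class. With the mean over cells the endothelial-like and dendritic-like values turned to 0.990 and 0.993. The macrophage/monocyte-like sub-clusters were split, with 6 of 12 above 1 and intervals above 1 in 3 and below 1 in 3. In MuSC/myoblast-like cells 4 of 4 sub-clusters were above 1 in this comparison, with intervals above 1 in 2. In old PBS over young PBS 1 of 5 was above 1, at ratios of 0.397 to 1.03, with intervals below 1 in 2. Since both comparisons use the old PBS library, these values are not 2 separate observations. Against young PBS, old rMETRNL stood at 0.926 (0.795 to 1.08), 0.782 (0.743 to 0.822), 0.969 (0.899 to 1.05) and 0.986 (0.754 to 1.29).

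Within macrophage/monocyte-like cells the *Pdgfb* difference was not uniform. Old PBS was lower than young PBS in 8 of 12 sub-clusters, with intervals below 1 in 5 of them, for example 0.444 (0.385 to 0.511) in the Mfge8/Atp6v0d2 sub-cluster that led for Spp1 and Gpnmb. It was higher in the other 4, with intervals above 1 in 2, at 1.71 (1.43 to 2.04) in the Hes1/Abi3 and 1.19 (1.003 to 1.41) in the Hspa1a/Hspa1b sub-cluster. The cells were also spread differently: the Hes1/Abi3 sub-cluster made up 8.47%, 2.27% and 7.09% of the class and the Hspa1a/Hspa1b sub-cluster 8.29%, 4.61% and 7.39%, both of them high in *Pdgfb*, whereas the Vcam1/Dnase1l3 sub-cluster made up 16.7%, 26.4% and 11.04%. Endothelial-like sub-clusters were uneven too, with ratios of 0.342 (0.241 to 0.476) in the venous and 0.320 (0.172 to 0.561) in the arterial sub-cluster but 1.004 (0.792 to 1.27) in the tip cell sub-cluster. The median UMI count of old PBS endothelial-like cells was 4036 against 11319.5 in young PBS. The part of this depth, and of the sub-cluster sizes, in the *Pdgfb* ratios was not tested.

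*Pdgfa* was higher in old PBS than in young PBS in endothelial-like cells, at 1.54 (1.39 to 1.70), where 8.16% of genes were higher by 1.5-fold. Macrophage/monocyte-like cells gave 1.49 (1.44 to 1.54) and MuSC/myoblast-like cells 1.499 (1.38 to 1.63), both just short of 1.5-fold. The macrophage/monocyte-like value stayed short of it in 9 of 11 alternative settings, but the MuSC/myoblast-like value in only 1 of 10, with a highest of 1.64. Old PBS was above young PBS in 11 of 12 macrophage/monocyte-like sub-clusters, with intervals above 1 in 9, while the one led by Ear2 and Retnla was at 0.507 (0.369 to 0.698). Old PBS was also above young PBS in 8 of 8 MuSC/myoblast-like sub-clusters, with intervals above 1 in 5. FAP-like (0.922, 0.835 to 1.02) and pericyte/smooth muscle-like cells (0.902, 0.724 to 1.12) gave intervals that held 1. In endothelial-like cells the intervals lay above 1 in 4 of 7 sub-clusters and the ratios ran from 0.713 (0.352 to 1.35), in the Rassf9/Txnip one, to 3.40 (1.64 to 8.16), in the Slc10a6 one on 74 and 8 UMIs. The ratio was 2.84 (2.29 to 3.52) in the cycling, 2.29 (1.77 to 2.95) in the tip cell and 2.14 (1.51 to 3.06) in the arterial sub-cluster, against 1.21 (0.916 to 1.605) in the venous one. With the mean over cells, which weights shallow cells equally, the endothelial ratio was 1.05. The class was also made up differently: the venous sub-cluster held 26.3%, 13.4% and 19.7% of its cells, the Arl4d/Ccn1 one 7.67%, 28.04% and 16.1% and the Slc10a6 one 8.19%, 20.8% and 19.6%. Summed markers of other cells were highest in old PBS, at 253, 689 and 464 CPM for pericyte/smooth muscle, 17.0, 169 and 42.2 CPM for mature fibre and 25.5, 192 and 39.9 CPM for erythroid markers. The part of these values in the endothelial *Pdgfa* and *Pdgfb* ratios was not tested. Old rMETRNL stood at 1.82 (1.66 to 1.99) of young PBS in endothelial-like cells, against 3.32% of genes higher by 1.5-fold, and at 1.35 with the mean over cells.

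With rMETRNL, *Pdgfa* was higher in FAP-like cells. It was 1.80 times the old PBS level (1.64 to 1.97), where 4.23% of genes were higher by 1.5-fold, and 1.66 times the young PBS level (1.53 to 1.79, against 3.38% of genes). The ratio to old PBS was above 1 in 7 of 8 FAP-like sub-clusters, with intervals above 1 in 5, and was highest in the Slc16a3/Acta2 sub-cluster, at 2.19 (1.70 to 2.87), and 0.995 (0.689 to 1.43) in the interferon-response sub-cluster led by Rsad2 and Cxcl10. The Slc16a3/Acta2 and cycling sub-clusters, the pair with the highest *Pdgfa* over the 3 libraries together, also differed in size, at 8.54%, 3.099% and 8.29% and at 7.43%, 4.38% and 9.25% of the class. In macrophage/monocyte-like cells the same comparison gave 0.748 (0.724 to 0.772), not past 1.5-fold, with intervals below 1 in 6 of 12 sub-clusters and above 1 in 0, and the Vcam1/Dnase1l3 sub-cluster, highest in *Pdgfa*, made up 26.4% of the class in old PBS and 11.04% in old rMETRNL. The part of these sub-cluster sizes in either class ratio was not tested. The 12 macrophage/monocyte markers summed to 455, 359 and 417 CPM in FAP-like cells, against 27022, 23952 and 25448 CPM in macrophage/monocyte-like cells. Pericyte/smooth muscle markers summed to 443, 263 and 310 CPM in FAP-like cells and tenocyte markers to 535, 635 and 381 CPM. The part of these markers in the *Pdgfa* ratios was not tested. In T/NK-like cells *Pdgfa* was 1.84 (1.198 to 2.81) in old rMETRNL over young PBS, against 5.24% of genes, on 45 and 49 UMIs, and 1.01 by the mean over cells.

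*Pdgfc* in FAP-like cells was 0.628 times as high in old PBS as in young PBS (0.524 to 0.7504), where 6.46% of genes were lower by 1.5-fold, and 1.79 times as high in old rMETRNL as in old PBS (1.51 to 2.15). The Pi16/Dpp4 sub-cluster, where it is most abundant, gave 0.931 (0.694 to 1.25) and 1.18 (0.917 to 1.53), whereas the cycling sub-cluster gave 0.433 (0.242 to 0.732) and 1.79 (1.06 to 3.21). The Pi16/Dpp4 sub-cluster made up 8.17%, 12.5% and 14.0% of the class. Old rMETRNL stood at 1.13 of young PBS in the class, but above 1 in only 2 of 6 sub-clusters, with intervals below 1 in 2 and above 1 in 0. In tenocyte-like cells *Pdgfc* was higher in old PBS, by 1.96 (1.29 to 2.96) over 44 and 56 UMIs, against 5.97% of genes, and old rMETRNL was at 1.57 (1.10 to 2.24) of young PBS, against 4.63%, a call that held in 6 of 11 alternative settings (lowest 1.36). In the Sfrp4 sub-cluster, the highest of the class in *Pdgfc* over the 3 libraries together and 17.3%, 31.8% and 25.7% of its cells, the level was 36.4, 42.8 and 36.2 CPM on 24, 25 and 38 UMIs, and the ratios were 0.995 for old rMETRNL over young PBS and 0.846 over old PBS. The Efemp1 sub-cluster was at 26.2, 71.0 and 27.4 CPM on 13, 9 and 10 UMIs. The part of sub-cluster sizes in the class ratios of *Pdgfc* was not tested. In macrophage/monocyte-like cells the ratio of old PBS to young PBS was 1.31 (1.22 to 1.40). *Pdgfd* gave no ratio past 1.5-fold in endothelial-like cells (1.04, 0.870 to 1.24, and 0.769, 0.641 to 0.924) or in FAP-like cells (0.858, 0.657 to 1.11, and 1.27, 0.982 to 1.65). In tenocyte-like cells it was at 0.640 in old PBS over young PBS, past 1.5-fold but on 20 and 78 UMIs, with an interval of 0.371 to 1.06 that held 1.

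*Pdgfra* in FAP-like cells was 1.44 times as high in old PBS as in young PBS (1.40 to 1.49) and 1.34 times as high in old rMETRNL as in young PBS (1.3002 to 1.37). Neither reached 1.5-fold, but old PBS was above young PBS in 10 of 10 FAP-like sub-clusters, from 1.06 to 1.96, with intervals above 1 in 8, and old rMETRNL was above young PBS in 10 of 10, with intervals above 1 in 9. The 2 old libraries lay close, at 0.927 (0.901 to 0.953). In tenocyte-like cells the order of the *Pdgfra* levels was the reverse, with 0.592 (0.461 to 0.754) in old PBS over young PBS, where 7.91% of genes were lower by 1.5-fold, and 1.54 (1.205 to 1.98) in old rMETRNL over old PBS, where 6.93% were higher. The first call held in 9 of 11 alternative settings (highest 0.733) and the second in 5 of 11 (lowest 1.08, with a looser cell filter). For the first, 4 sub-clusters could be compared, at 0.270 to 1.21, with 1 above 1 and an interval below 1 in 1. For the second, 5 of 5 sub-clusters were above 1, with an interval above 1 in 1. The sizes of the sub-clusters differed here too, with the Clu/Ucma one at 19.4%, 9.09% and 16.7% and the Col22a1 one at 6.28%, 20.9% and 16.7%, whose part in the ratios was not tested. The summed FAP markers of this class differed little (36596, 34652 and 36240 CPM). Its tenocyte markers summed to 19630, 22372 and 18342 CPM, its MuSC/myoblast markers to 151, 237 and 143 CPM and its mature fibre markers to 30.9, 110 and 27.8 CPM. The pericyte/smooth muscle markers were at 346, 458 and 515 CPM. The part of these markers in the *Pdgfra* ratios was not tested.

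*Pdgfrb* in FAP-like cells was at 0.996 (0.962 to 1.03) in old PBS over young PBS, but its sub-clusters ranged from 0.839 to 1.53, with intervals above 1 in 5 of 10 and below 1 in 2. The Swt1 sub-cluster, high in *Pdgfrb*, made up 22.6%, 9.902% and 11.8% of the class, and the part of this size in the class ratio was not tested. Old rMETRNL was at 0.782 (0.753 to 0.812) of old PBS, with intervals below 1 in 7 of 10 sub-clusters. Pericyte/smooth muscle-like and tenocyte-like cells gave 0.785 (0.669 to 0.920) and 0.861 (0.752 to 0.989) in the same comparison, none of the 3 past 1.5-fold. In MuSC/myoblast-like cells *Pdgfrb* stood below young PBS in both old libraries, by ratios of 0.480 (0.262 to 0.829) for PBS and 0.416 (0.267 to 0.635, against 2.41% of genes) for rMETRNL, on 79, 16 and 32 UMIs. By sub-cluster, Mgp and Chodl cells were lower in both old libraries, while Fos cells were higher in old PBS. FAP and pericyte/smooth muscle markers of this class were at 1.16 and 1.13 in old PBS over young PBS and at 0.941 and 0.838 in old rMETRNL over young PBS. Their part was not tested. In endothelial-like cells the *Pdgfrb* ratio was 3.91 (2.32 to 6.80) in old PBS over young PBS, on 55 and 21 UMIs. It was 0.412 (0.265 to 0.634, against 6.15% of genes) in old rMETRNL over old PBS, but 0.698 and short of 1.5-fold with library-centred clustering. Old rMETRNL was at 1.61 (0.920 to 2.88) of young PBS. The endothelial levels lay below those of barcodes with under 500 genes, and 9 of 10 pericyte/smooth muscle markers were higher in old PBS than in young PBS and 4 of 10 in old rMETRNL than in old PBS. The 10 FAP markers summed to 154, 296 and 150 CPM there, 9 of 10 being higher in the first comparison and 1 of 10 in the second. Their part in the *Pdgfrb* ratio was not tested. In macrophage/monocyte-like cells *Pdgfra* was at 1.69 in old rMETRNL over young PBS (3.45% of genes) and *Pdgfrb* at 0.630 in old rMETRNL over old PBS (3.19%). Both were at levels of at most 1.16 CPM, and the source of these UMIs was not tested.

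The genes whose levels ran most like each member over the 24 class and library sums are given as a description, since sums of 1 class or 1 library are not independent. Of 13341 other genes, *Pdgfrb* was closest to Cygb (Pearson's r = 0.99) and Rarres2 (0.99), *Pdgfra* to Svep1 (0.98) and P4ha3 (0.98), *Pdgfd* to Ldb2 (0.98), *Pdgfa* to Aopep (0.95), *Pdgfc* to Napa (0.93) and *Pdgfb* to Map3k11 (0.92). The receptor genes correlated with each other at 0.66, and *Pdgfb* with *Pdgfra* at -0.81.

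Of 36 further genes of the pathway, those past 1.5-fold were counted in each class. In FAP-like cells 35 could be compared, 3 were higher and 0 lower in old PBS than in young PBS (12.8% of all genes passed either way), and 0 passed in old rMETRNL over old PBS (8.38% of all genes), with ratios of 0.707 to 1.05. The 3 were *Plau*, which encodes urokinase (146 and 89.6 CPM, 1.63, 1.57 to 1.71), *Ptprj*, a phosphatase that acts on PDGF receptors (1.55, 1.39 to 1.73), and *Spry2*, an inhibitor of the signal (1.51, 1.45 to 1.57). In macrophage/monocyte-like cells 0 of 34 were higher and 1 lower (11.9% of all genes passed), *Dusp6*, a phosphatase induced by the ERK pathway (0.662, 0.620 to 0.707). In old rMETRNL over old PBS 1 of 34 was higher and 1 lower (8.51% of all genes passed): *Dusp6* was at 1.70 (1.598 to 1.81) and *Gab1*, an adaptor, at 0.644 (0.608 to 0.683). In tenocyte-like cells 3 of 35 were higher and 2 lower in old PBS than in young PBS (13.9% of all genes passed), and 1 higher and 3 lower in old rMETRNL over old PBS (11.8%). In MuSC/myoblast-like cells 5 of 34 were higher and 0 lower in the first comparison (8.19% of all genes passed) and 0 higher and 2 lower in the second (6.79%). Dendritic-like cells gave 3 higher and 1 lower of 25 in the first (13.4%) and 3 higher and 2 lower of 26 in the second (10.6%), and T/NK-like cells 4 higher and 1 lower of 22 (13.3%) and 1 higher and 0 lower of 20 (11.7%).

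In endothelial-like cells 4 of 34 pathway genes were higher and 1 lower in old PBS than in young PBS (16.8% of all genes passed either way), and 1 was higher and 2 lower in old rMETRNL over old PBS (12%). The urokinase receptor gene *Plaur* was higher (453 and 240 CPM, 1.89, 1.78 to 2.003), as were *Socs3* (1.81, 1.73 to 1.90) and *Lrp1*, a co-receptor (2.74, 1.87 to 4.07). In old rMETRNL over old PBS *Lrp1* was at 0.603 (0.437 to 0.834) and *Ptprj* at 0.616 (0.425 to 0.893). The summed FAP markers of these cells stood at 1.92 and 0.507, the pericyte/smooth muscle markers at 2.73 and 0.675 in the same comparisons, and the macrophage/monocyte markers at 290, 503 and 390 CPM, and their part in the pathway ratios was not tested. In pericyte/smooth muscle-like cells 5 of 29 were higher and 1 lower in old PBS than in young PBS (25.9% of all genes passed in this small class) and 2 of 27 higher and 3 lower in old rMETRNL over old PBS (13.2%). The first were led by *Dusp6* (3.21, 1.77 to 6.06, on 38 and 17 UMIs) and *Sparc*, which binds PDGF-B, was the lower one (0.560, 0.533 to 0.589). The median log2 ratio of the pathway genes compared lay between -0.01 (tenocyte-like) and 0.40 (dendritic-like) over the 8 classes in old PBS over young PBS, at 0.19 in FAP-like and 0.23 in macrophage/monocyte-like cells, beside medians of -0.09 to -0.01 over all genes with at least 200 UMIs. In old rMETRNL over old PBS it lay between -0.23 (dendritic-like) and 0.00, at -0.20 in FAP-like and -0.21 in macrophage/monocyte-like cells, beside medians of 0.00 to 0.06 over all genes.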

How the data were processed

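Single-cell suspensions of injured tibialis anterior were sequenced with 10x Genomics chemistry in 3 libraries. The deposited values are raw UMI counts per gene and barcode, made by the authors with Cell Ranger (5.0.0 per the file headers; the submitters' processing notes also name 3.1.0) on mm10, with no normalization. A barcode was kept if it had 500 genes or more and less than 10% of its UMIs from mitochondrial genes. Scrublet in scanpy 1.11.5 called 0 doublets by its own threshold, so the highest scores were removed at 0.8% per 1000 barcodes. After scaling each cell to 10000 and taking logs, 30 principal components were computed from 2000 variable genes other than the 6 PDGF genes, and a graph of 20 neighbours was clustered by Leiden at resolution 0.8 (Python 3.11.15, anndata 0.12.19, igraph 0.11.9, leidenalg 0.10.2, numpy 2.4.6, scipy 1.17.1, pandas 2.3.3, matplotlib 3.10.9).

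Clusters were named from 15 marker lists, needing at least 3 markers and 33.3% of a list in 10% of cells. Classes were clustered again, and sub-clusters led by another class were removed from the class. Unnamed cells made up 5.43%, 7.81% and 6.52% of young PBS, old PBS and old rMETRNL. UMIs were summed per class and library and given as CPM with exact Poisson intervals, and shares with exact (Clopper-Pearson) intervals. Ratios have an exact interval that conditions on the summed UMIs of both libraries. The ratio code was run on simulated Poisson counts. These share the assumption of the interval and hold no clustering of UMIs within cells, so they do not test it for real cells. Every PDGF gene is named. Of the pathway genes at most the 3 with the largest ratio in each direction per class and comparison, and of genes with a similar pattern at most 3 per PDGF gene, among those with at least 500 UMIs. The members, lists and conditions were chosen with earlier results of these data known. Symbols were matched to GENCODE M21 and RefSeq for positions and promoter sequences. The values of 1 pathway gene are not reported here.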

Additional observations from a re-analysis of the deposited data

Results flagged for a closer look

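In the comparison of old PBS with young PBS, 2 genes moved in opposite directions in 2 classes, each past 1.5-fold, with 1 library per group and no test of the difference. *Pdgfc* was at a ratio of 1.96 (1.29 to 2.96) in tenocyte-like and 0.628 (0.524 to 0.7504) in FAP-like cells. In the sub-clusters with the most *Pdgfc* UMIs of each class it was at 36.4 and 42.8 CPM (young PBS and old PBS, 24 and 25 UMIs) in the Sfrp4 tenocyte-like sub-cluster, which made up 17.3% and 31.8% of the class, and at a ratio of 0.931 (0.694 to 1.25) in the Pi16/Dpp4 FAP-like one. *Pdgfrb* was at 3.91 (2.32 to 6.80) in endothelial-like and 0.480 (0.262 to 0.829) in MuSC/myoblast-like cells, on 55 and 21 against 16 and 79 UMIs. The *Pdgfrb* levels of both classes lay below those of barcodes with under 500 genes. The summed pericyte/smooth muscle and FAP markers of the endothelial-like cells were 2.73 and 1.92 times as high in old PBS as in young PBS. In MuSC/myoblast-like cells, where *Pdgfrb* was lower, the same marker sums were at 1.13 and 1.16. The part of these markers in either ratio was not tested.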

How the results depend on the processing

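Counts of PDGF pairs past 1.5-fold were recomputed under 14 alternatives, of which leaving out cells under 2000 UMIs was chosen after seeing the data. For old PBS over young PBS, old rMETRNL over old PBS and old rMETRNL over young PBS the main counts were 9, 6 and 7. A stricter cell filter, which left no comparable pericyte/smooth muscle-like or MuSC/myoblast-like class, gave 4 in the first and 4 in the third. A minimum of 20 UMIs gave 14 and 11 and one of 200 UMIs 5 and 2 in the same comparisons. The mean of per-cell CPM gave 3 in the third. A 2-fold line gave 3, 1 and 1. With the stricter filter ratios also moved in classes that remained, such as *Pdgfc* in FAP-like cells (0.628 to 0.742), and there and for the mean of per-cell CPM the cause was not tested. Of 22 ratios past 1.5-fold, 22 kept their side of 1 in every alternative that gave a value and 10 kept the call in every one. Of 60 others, 11 passed 1.5-fold in at least 1. Unthinned shares of FAP-like cells with *Pdgfra* or *Pdgfrb* were 81.5% to 94.5%, against 21.4% to 41.6% thinned. No paired analysis was possible because each group has 1 library. Counts of cells limit pericyte/smooth muscle-like, tenocyte-like and T/NK-like values most.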
